A study of Rattus norvegicus with 48 samples.

Results

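The comparison described here sets rat primary cortical cultures given the HIV-1 protein Tat alone against untreated cultures of the same series (Control). It takes 6 of the 48 RNA-seq libraries, 3 labelled Tat and 3 labelled Control, which were chosen by their treatment labels, and every gene of the deposited table. Of the 30211 genes listed, 15609 had at least 0.5 CPM (reads of a gene relative to the scaled size of its library) in at least 3 of the 21 libraries fitted together and were tested, and 9001 were at 0 in each of the 6 libraries. Both groups were mixed cultures from the brain of Sprague-Dawley rat fetuses of 18 days, kept in serum-free medium after the first day and used at day 21 in vitro. Tat cultures received the protein at 6 ng/ml for 48 h, and Control cultures received neither Tat nor another agent. The other groups of the series, which number 16 with these, added cocaine, 4-octyl itaconate (4OI), Amlexanox, Tazemetostat or Senicapoc, with and without Tat. As a model, the Tat group stands for a purified protein in the medium of cultures that hold no virus and no infected cells. Nothing in the labels says that the 3 libraries of a group came from separate preparations of cells, so the p-values given here measure a spread between libraries of a group that may be technical. That spread was pooled over the 21 libraries fitted together and not taken from the 6 alone.

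Tat is the transactivator that HIV-1 needs for transcription of its own genome, and infected cells also release it, so that cells with no virus can meet it. In nervous tissue it is known to act on microglia and astrocytes as well as on neurons. Such an encounter commonly runs through NF-κB, a family of dimeric transcription factors that IκB proteins hold in the cytoplasm until receptors of cytokines or of microbial products release them. Freed NF-κB drives chemokines, cytokines, survival genes and its own inhibitors. Interferons act in turn through STAT proteins on interferon-stimulated response elements (ISREs), and interferon gamma also through Ciita, the co-activator that acts on MHC class II promoters by way of factors bound to the X and Y boxes.

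The labels call the cells neurons, but the RNA was that of a mixed culture. The CPM of 31 pan-neuronal genes added up to 7323, 5690.4 and 4818 in the Control libraries, those of 40 astrocyte genes to 15704, 15226 and 16962, those of 24 genes of microglia and macrophages to 1564, 2729 and 1841 and those of 18 oligodendrocyte genes to 1855, 895 and 369. Of 16 lymphocyte markers 2 passed the minimum, and of these Cd79b rose, from 0.0767, 0.539 and 0.318 to 3.45, 1.79 and 0.804 CPM. Cd79b lost its call without Control 1, Control 3, Tat 1 or Tat 2 (adjusted p 0.0628 to 0.137) and with a fit to Tat and Control alone (adjusted p 0.0776). Since each library is bulk RNA of a culture, fewer cells of a type and less RNA per cell cannot be told apart in any result below.

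The 6 libraries held 19.9 to 25.5 M reads assigned to genes, and 0.5 CPM stood for 9.86 to 13.04 reads. Libraries of a group correlated with a Pearson r of 0.972 to 0.986 across genes on the log2 scale, and no 2 libraries were copies of each other. Between the groups r ran from 0.908 to 0.972. Tat 3 with Control 2 (0.9723) lay just above Control 1 with Control 3 (0.9716). A first principal component, with 65.4% of the variance, separated the groups, while the next, with 18.6%, set Control 3 (38.7) apart at one end and Tat 3 (−29.8) at the other. Of the 6 libraries 3, here called by group and replicate number, stood apart in ways that touch the results. Among the 1512 genes called higher with Tat, Control 2 was the highest Control library in 899 and Tat 3 the lowest Tat library in 987. Control 2 had the highest level of interferon-stimulated genes among the Control libraries, with 1377, 5875 and 2138 CPM summed over 49 genes in Control 1, 2 and 3. Control 3 had the highest levels of connective tissue genes, such as collagen Col3a1 at 9.03, 10.7 and 208 CPM in the Control libraries.

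Promoters of 6 genes that the results turn on are shown first, because they hold the kinds of element through which the background above says such genes are read. The sequences are RefSeq's, of build GRCr8, which is not the build of the deposited table, and run from 250 bases before to 50 bases after the start of the gene. Each is printed 5′ to 3′ on the strand of the gene, and capitals mark the match. The NF-κB motif searched was GGG, any 2 bases and TTTCC, the ISRE motif GAAA, any 2 bases and GAAA, and the Y box CTGATTGG, each on both strands.
Ccl20, chr9:91836909-91837208, plus strand: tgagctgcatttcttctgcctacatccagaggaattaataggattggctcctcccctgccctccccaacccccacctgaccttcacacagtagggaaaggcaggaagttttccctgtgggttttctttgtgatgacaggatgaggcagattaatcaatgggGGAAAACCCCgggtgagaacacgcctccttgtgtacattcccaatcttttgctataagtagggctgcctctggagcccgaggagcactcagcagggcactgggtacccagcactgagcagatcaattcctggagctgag
Cxcl1, chr14:17479272-17479571, minus strand: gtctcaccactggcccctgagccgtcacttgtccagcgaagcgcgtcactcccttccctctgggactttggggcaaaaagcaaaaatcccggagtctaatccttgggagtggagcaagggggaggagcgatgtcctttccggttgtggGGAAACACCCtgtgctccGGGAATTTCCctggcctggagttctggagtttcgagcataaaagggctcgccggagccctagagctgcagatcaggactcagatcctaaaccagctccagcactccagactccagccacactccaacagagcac
Nfkbia, chr6:78597023-78597322, minus strand: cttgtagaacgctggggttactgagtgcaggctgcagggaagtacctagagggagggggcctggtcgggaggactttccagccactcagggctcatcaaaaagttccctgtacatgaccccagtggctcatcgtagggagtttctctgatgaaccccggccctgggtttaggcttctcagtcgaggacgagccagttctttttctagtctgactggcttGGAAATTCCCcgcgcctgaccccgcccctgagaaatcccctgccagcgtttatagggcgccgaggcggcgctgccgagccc
Irf7, chr1:205799974-205800273, minus strand: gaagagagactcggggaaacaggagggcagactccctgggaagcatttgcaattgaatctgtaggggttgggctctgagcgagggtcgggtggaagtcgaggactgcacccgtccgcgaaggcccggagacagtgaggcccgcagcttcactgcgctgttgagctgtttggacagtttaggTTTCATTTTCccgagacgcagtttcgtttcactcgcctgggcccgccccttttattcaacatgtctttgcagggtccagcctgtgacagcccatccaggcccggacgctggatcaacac
RT1-Da, chr20:4515165-4515464, plus strand: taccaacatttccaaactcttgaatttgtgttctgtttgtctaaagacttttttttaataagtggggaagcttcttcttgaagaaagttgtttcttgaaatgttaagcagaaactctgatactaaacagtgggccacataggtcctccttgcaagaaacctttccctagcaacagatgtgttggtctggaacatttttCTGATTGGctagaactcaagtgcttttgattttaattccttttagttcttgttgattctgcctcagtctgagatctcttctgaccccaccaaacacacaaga
RT1-Ba, chr20:4576807-4577106, plus strand: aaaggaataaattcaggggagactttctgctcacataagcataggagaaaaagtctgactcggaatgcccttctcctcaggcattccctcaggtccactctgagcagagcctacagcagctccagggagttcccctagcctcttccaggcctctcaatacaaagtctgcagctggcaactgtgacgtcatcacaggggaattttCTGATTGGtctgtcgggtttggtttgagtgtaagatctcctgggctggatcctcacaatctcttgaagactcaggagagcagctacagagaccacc
Ccl20 (a chemokine) held the NF-κB motif 89 bases before its start, Cxcl1 (a neutrophil chemokine) held it 102 and 84 bases before its start, and Nfkbia (the inhibitor IκBα) 31 bases before. Irf7 (an interferon regulatory factor) held the ISRE motif 69 bases before its start, and the MHC class II genes RT1-Da and RT1-Ba held the Y box 52 and 46 bases before theirs. Of the tested genes, 11104 had a promoter in the table. The NF-κB motif was in 1.51% of all 27457 promoters, in 3.65% of the 1150 promoters of genes called higher with Tat (42), in 1.15% of the 524 of genes called lower (6) and in 1.60% of the 9430 of genes not called. For the ISRE motif the shares were 3.77% of all, 4.52% of those called higher, 1.53% of those called lower and 2.78% of those not called, and for the Y box 3.55, 5.13, 6.49 and 4.81%. The last motif is thus no more frequent among genes called higher than among genes called lower. A match is a string of letters and not a site shown to be bound.

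With Tat, 2229 of the 15609 genes (14.3%) passed an adjusted p of 0.05 in limma. Of these, 1512 were higher (9.69% of the genes tested) and 717 lower (4.59%), and 4640 genes had an unadjusted p under 0.05. The rises were also the larger changes. A change of at least 4-fold was fitted for 238 genes called higher and 25 called lower, and one of at least 16-fold for 37 and 0. The median log2 fold change of all genes was 0.01. Genes called higher took 7.86, 9.83 and 8.58% of all CPM in the Control libraries and 20.3, 22 and 17.4% in the Tat libraries, and genes called lower took 9.81% of the Control and 5.47% of the Tat means. After quantile normalization, which makes the distributions of all libraries equal, the calls were 1262 higher and 1019 lower, so that the split depends on the scaling (55.3% higher against 67.8%). Without Control 1, Tat 1 or Tat 2 the calls numbered 1263, 1455 and 1030. Fold changes are on the log2(CPM + 0.5) scale, which understates those of low genes, with their standard error (SE) for 3 libraries a group, and each adjusted p is limma's after Benjamini-Hochberg adjustment over the 15609 genes. A gene at high level with Tat alone could reach the minimum through the Tat groups, so counts over tested genes leave out the listed genes that stayed under it. Counts of a gene list are read below against these shares, and groups whose 3 libraries lie wholly above or below those of the other group against 19.5% (above) and 13.7% (below) of all genes. On the 20 lists with rises and 0 falls, 13 of 499 genes were lower at an unadjusted p under 0.05, and on the 5 lists with falls and 0 rises 3 of 148 were higher.

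**Figure D1:**
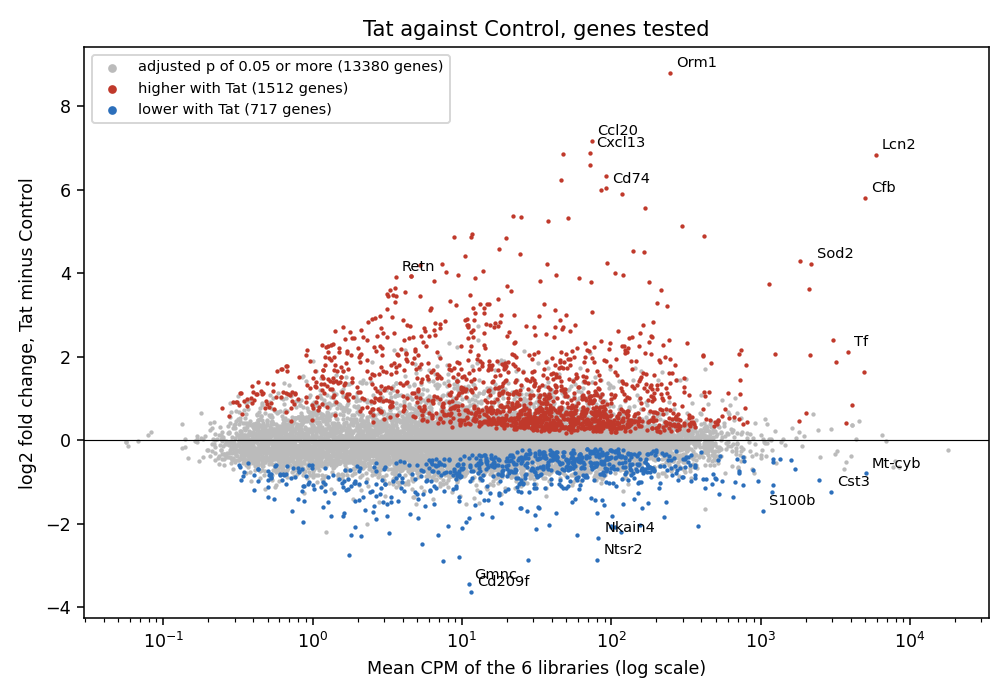
Each point is a gene tested, at its mean over the 6 libraries (CPM, log axis) and its log2 fold change, Tat minus Control; red points were called higher (1512) and blue points lower (717) by limma. The points above a log2 fold change of 4 are red, while the deepest fall, of Cd209f, is at −3.64.

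Orm1, which encodes the acute-phase protein alpha-1-acid glycoprotein, stood at 0.422, 1.18 and 0.272 CPM in Control 1, 2 and 3 and at 686, 499 and 298 CPM in Tat 1, 2 and 3 (log2 fold change 8.78, SE 0.7, adjusted p = 1.12e-06). All values in this order, Control 1 to 3 and Tat 1 to 3, are given in the same way below. Slpi, an inhibitor of leukocyte proteases, went from 0, 0.809 and 0.227 to 57.7, 109.7 and 116 CPM (log2 fold change 6.86, SE 0.66, adjusted p = 6.83e-06). Lcn2, the iron-siderophore binding lipocalin, went from 94.7, 315 and 33 to 13561, 12755 and 8461 CPM (log2 fold change 6.82, SE 0.86, adjusted p = 8.28e-05). In each of these genes the lowest Tat library lay over 20 times above the highest Control library. As a share of all reads, which also depends on the length of a transcript, Lcn2 gained most, followed by complement factor Cfb, with 85.8, 432 and 140.5 CPM (Control) and 9233, 12395 and 7844 CPM (Tat), and by clusterin (Clu), with 2197, 2895 and 2144 CPM (Control) and 6930.1, 9233 and 6283 CPM (Tat). Transferrin (Tf) rose from 1319.8, 2587 and 821 to 6090.1, 6191 and 5979 CPM and beta-2-microglobulin (B2m) from 1077, 1978 and 1185 to 4407, 4895 and 5648 CPM. Angptl4, an inhibitor of lipoprotein lipase, rose from 5.18, 10.1 and 4.68 to 229, 456 and 307 CPM (log2 fold change 5.56). The rises of lowest adjusted p also held Frzb, a secreted Wnt antagonist, from 1.23, 1.37 and 1.63 to 8.87, 8.32 and 7.52 CPM, and the transferrin receptor Tfr2, from 1.34, 1.72 and 0.908 to 13.1, 23.2 and 14.7 CPM. Neither of these genes overlapped between groups.

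**Figure D2:**
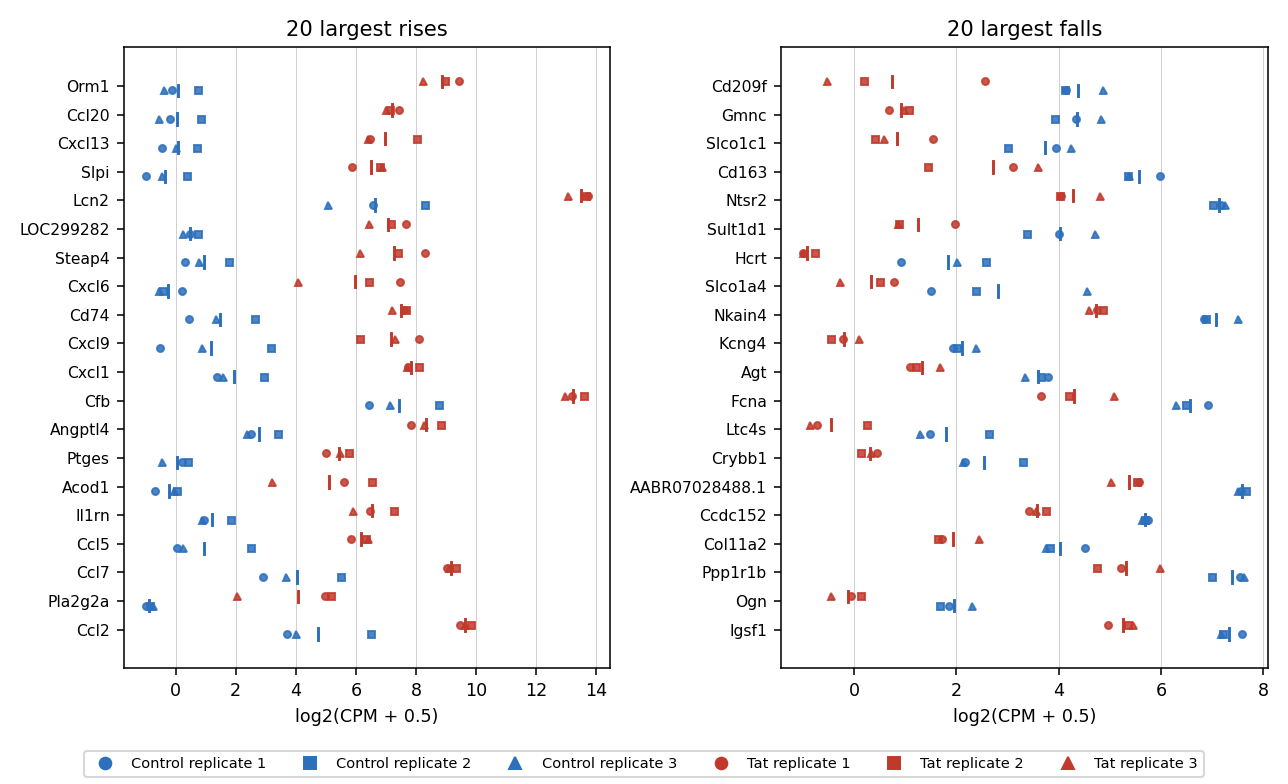
Values of the 20 largest rises and the 20 largest falls on the log2(CPM + 0.5) scale in each of the 6 libraries, with the group mean as a bar. In each gene shown the 3 Tat libraries (red) lie apart from the 3 Control libraries (blue), which the choice of these genes required; Control 2 (blue square) is the highest Control library in most rises.

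Chemokines draw leukocytes to a site of inflammation, and they were among the groups with most calls. Of 34 listed, 27 passed the minimum, of which 20 rose and 2 fell (74.1 and 7.41%, against 9.69 and 4.59% of all genes), with a median log2 fold change of 2.62. Of the 27, 5 passed only through libraries with Tat, so the share and the median depend on the minimum. With none, all 34 entered, 20 rose and 2 fell, and the median was 2.13. Ccl20, the ligand of Ccr6, whose promoter is printed above, stood at 0.383, 1.27 and 0.182 CPM in Control and 172, 141 and 127 CPM in Tat libraries (log2 fold change 7.16, SE 0.56, adjusted p = 1.12e-06). Cxcl13, which attracts B cells, went from 0.23, 1.13 and 0.499 to 87.2, 259 and 84.1 CPM (log2 fold change 6.88, SE 0.53, adjusted p = 1.12e-06), with Tat 2 about 3 times above the other Tat libraries. The monocyte chemokines Ccl2 and Ccl7 moved side by side. Ccl2 was at 12.6, 89.97 and 15.7 CPM (Control) and 704, 916 and 782 CPM (Tat) and Ccl7 at 7.02, 44.6 and 12.1 CPM (Control) and 527, 646 and 550 CPM (Tat) (log2 fold changes 4.89 and 5.14). In both, Control 2 was the highest Control library, and still lay over 7 times below the lowest Tat library. Neutrophil chemokines rose as well. Cxcl1 went from 2.07, 7.11 and 2.45 to 211, 271 and 208 CPM (log2 fold change 5.89, SE 0.64, adjusted p = 1.8e-05), and Cxcl3 from 0.153, 0.049 and 0.182 to 9.02, 7.03 and 4.25 CPM. Cxcl6 went from 0.652, 0.245 and 0.182 to 176, 85.1 and 16.3 CPM and thus spread over 10-fold among the Tat libraries, all of which lay above the Control libraries. Cxcl9, a chemokine of the interferon-gamma response, was at 0.192, 8.53 and 1.32 CPM (Control) and 276, 68.9 and 156 CPM (Tat), and Ccl5 at 0.537, 5.2 and 0.681 CPM (Control) and 56.2, 79.6 and 83.1 CPM (Tat) (log2 fold changes 6.003 and 5.24). Cxcl12, which guides cells in the healthy brain too, rose from 21.3, 30.5 and 37.2 to 258, 218 and 105 CPM. The 2 falls were those of Pf4, the platelet factor that border macrophages also express, from 63.1, 51.2 and 69.6 to 16.5, 15.2 and 12.4 CPM (log2 fold change −2.02, SE 0.45, adjusted p = 0.00705), and of Ccl17, from 0.844, 0.735 and 0.635 to 0.101, 0.138 and 0.142 CPM. Cxcl10 was not called (6.98, 183 and 28.5 CPM in Control and 37.2, 42 and 122 CPM in Tat libraries, log2 fold change 0.77, adjusted p = 0.593), and Control 2 was the highest of the 6 libraries.

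Interleukins and ligands of the TNF family numbered 42, of which 30 passed the minimum, 12 rose and 1 fell, with a median of 0.69. Of the 30, 2 passed only through libraries with Tat. With no minimum the median was 0.46 over 40 genes, of which 12 rose and 0 fell. Il1b, the cytokine that the inflammasome matures, went from 2.38, 5.93 and 5.27 to 98.4, 108 and 37 CPM (log2 fold change 3.96, SE 0.63, adjusted p = 0.000535). Il1rn, the antagonist at the same receptor, went from 1.42, 3.09 and 1.32 to 88.5, 155 and 58.6 CPM (log2 fold change 5.33, SE 0.62, adjusted p = 4.03e-05). Both rose in each Tat library, with Tat 3 lowest. The growth factors of the myeloid line rose too. Csf1, which maintains microglia, went from 80.1, 145 and 137 to 378, 429.96 and 281 CPM, and Csf3, which drives granulocytes, was at 0 in each Control library and at 1.72, 2.67 and 1.09 CPM with Tat, at least 13.8-fold above a floor of 3 reads per library. The TNF family cytokines Tnfsf9 and Tnfsf15, rose from 0.46, 0.441 and 0.499 to 1.98, 2.76 and 1.65 CPM and from 0.652, 0.588 and 0.545 to 4.21, 3.95 and 2.6 CPM. Tnf itself was under the minimum and had 0, 0 and 0.0227 CPM in Control and 0, 0 and 0 CPM in Tat libraries. Ifnb1 (interferon beta) was at 0 in the 6 libraries, and Ifng (interferon gamma) at no more than 0.152 CPM. Il6 stood at 0.268, 1.32 and 0.363 CPM (Control) and 3.45, 3.22 and 1.42 CPM (Tat), higher in each Tat library, and did not pass the test (log2 fold change 1.51, adjusted p = 0.107). Tgfb2 was the gene that fell, from 103, 93.1 and 131 to 85, 73.5 and 81.5 CPM (log2 fold change −0.43, SE 0.14, adjusted p = 0.0409). Of interleukins and TNF ligands, rises numbered 7 without Tat 2. Tgfb2 lost its call without Control 1, Control 3, Tat 1, Tat 2 or Tat 3 (adjusted p 0.0625 to 0.175) and with no minimum of CPM, a fit to Tat and Control alone, no trend in the fit, array weights or a fit to all 48 libraries (adjusted p 0.0508 to 0.109).

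Of 40 tested receptors of these ligands 21 rose and 0 fell (median 0.94). Among the 40, 3 passed the minimum only through libraries with Tat, and with no minimum 22 of 45 rose and 0 fell (median 0.83). Osmr, the oncostatin M receptor that astrocytes carry, had the largest rise, from 20.7, 28.6 and 20.2 to 334, 431 and 231 CPM (log2 fold change 3.78, SE 0.36, adjusted p = 6.83e-06). Il13ra1 rose from 6.4, 10.9 and 6.72 to 29.5, 32.1 and 25.4 CPM, Tnfrsf1b (TNF receptor 2) from 17, 28.2 and 19.7 to 63.4, 68.7 and 60.3 CPM and Tnfrsf9 from 4.83, 11.6 and 5.67 to 47, 37.7 and 26.9 CPM. The 2 subunits of the interferon alpha and beta receptor, Ifnar1 and Ifnar2, were at 204, 229 and 214 CPM (Control) and 413, 307 and 266 CPM (Tat) and at 49.9, 59.3 and 31.2 CPM (Control) and 85.3, 81.4 and 115 CPM (Tat) (log2 fold changes 0.59 and 1.03). Cd40, the co-stimulatory receptor of antigen-presenting cells, went from 1.04, 2.55 and 1.72 to 6.39, 9.06 and 7.04 CPM (log2 fold change 1.86, SE 0.36, adjusted p = 0.0024). Downstream, 7 of 20 genes of the JAK-STAT pathway rose and 0 fell (median 0.45). Socs3, the feedback inhibitor of Stat3, went from 15.8, 20.6 and 14.5 to 77.1, 87.1 and 61.1 CPM (log2 fold change 2.11, SE 0.28, adjusted p = 0.000146), Stat3 from 232, 331 and 282 to 697, 635 and 531 CPM and the kinase Jak2 from 92.2, 106 and 85.8 to 259.9, 271 and 201 CPM (log2 fold changes 1.14 and 1.35). In these genes the groups did not overlap. Of these receptors, rises numbered 12 without Tat 2. Ifnar1 lost its call without Control 1 or Tat 1 (adjusted p 0.0693 to 0.0922) and with a fit to Tat and Control alone (adjusted p 0.0802). Ifnar2 lost its call with a fit to Tat and Control alone (adjusted p 0.055).

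NF-κB and its regulators rose with 20 of 31 genes tested and 0 falls (median 1.07). Among the 31, 1 passed the minimum only through libraries with Tat, and with no minimum 19 rose. Among the inhibitors, Nfkbia stood at 60.3, 126 and 57.6 CPM in Control and 393, 469.7 and 362 CPM in Tat libraries (log2 fold change 2.41, SE 0.36, adjusted p = 0.000368). Nfkbiz, a nuclear co-activator of the IκB family, went from 9.66, 18.3 and 9.53 to 185, 208 and 202 CPM (log2 fold change 4.001, SE 0.39, adjusted p = 8.87e-06), with Tat libraries close together. Tnfaip3 (A20), the deubiquitinase that ends the signal, went from 8.01, 16.4 and 8.62 to 64.9, 94.6 and 59 CPM (log2 fold change 2.71, SE 0.45, adjusted p = 0.00085). Its partners Tnip1 and Tnip3 rose from 60.3, 90.6 and 73.4 to 349, 466 and 281 and from 0.0383, 0.0981 and 0 to 13.4, 10.6 and 3.17 CPM. Nfkb1 rose from 54.1, 81.7 and 81.6 to 172, 193 and 125 CPM and Nfkb2 from 20.9, 37.7 and 29.1 to 87.8, 100.2 and 74.3 CPM (log2 fold changes 1.17 and 1.59), while Rela was at 48.3, 63.6 and 61.8 CPM (Control) and 90.5, 90.6 and 70.2 CPM (Tat) (0.53, adjusted p = 0.0578; without Tat 3 0.65, adjusted p = 0.0347). Birc3, the inhibitor of apoptosis that NF-κB induces, rose from 6.02, 16 and 6.72 to 203, 201 and 130.2 CPM (log2 fold change 4.25, SE 0.59, adjusted p = 0.000187). Zc3h12a, an endonuclease that degrades cytokine mRNAs, went from 4.87, 9.27 and 7.22 to 61, 66.9 and 47.1 CPM. Control 2 was the highest Control library in Nfkbia, Nfkbiz, Tnfaip3, Birc3 and Zc3h12a, and in each of them it lay below the Tat libraries. Of 38 genes of pattern recognition and inflammasomes 15 rose and 0 fell (median 0.83). Here too 1 passed the minimum only through libraries with Tat, and with no minimum 14 rose. Clec7a (dectin-1), a lectin receptor of phagocytes, went from 1.88, 2.01 and 2.54 to 17.2, 17.7 and 21.6 CPM (log2 fold change 2.87, SE 0.23, adjusted p = 1.12e-06), and Clec4d from 0.0767, 0.294 and 0.182 to 6.49, 8.55 and 6.004 CPM. Nod2 rose from 0.959, 1.67 and 0.635 to 7.76, 8.55 and 7.14 CPM and Irak3, an inhibitor of Toll-like receptor signalling, from 6.4, 9.27 and 10.1 to 59.98, 66.1 and 33 CPM. Tlr1 rose from 0.92, 2.65 and 2.86 to 29.9, 43.1 and 9.36 CPM, and Tlr4 stood at 5.06, 7.89 and 6.85 CPM (Control) and 10.6, 17.7 and 8.98 CPM (Tat) without passing the test (log2 fold change 0.83, adjusted p = 0.197). Nlrp3, the sensor of the best known inflammasome, had 13.1, 22.8 and 19 CPM (Control) and 30.1, 44.7 and 24.9 CPM (Tat) (adjusted p = 0.243), while its effector protease Casp1 rose from 5.14, 13 and 7.76 to 23.5, 40.9 and 24.9 CPM. Of the genes of pattern recognition and inflammasomes, rises numbered 9 and 9 without Control 1 and Tat 2 in turn. Casp1 lost its call without Control 1 or Tat 2 (adjusted p 0.0759 to 0.0815).

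Of 46 interferon-stimulated genes tested, 12 rose and 0 fell (median 1.08), and 45 had a fold change above 0. The sum of the 49 genes listed was 1377, 5875 and 2138 CPM in Control and 5467, 6222 and 6489 CPM in Tat libraries, so that Control 2 stood within the range of the Tat libraries. Without Control 2, 35 of the 46 rose, with a median of 1.75, and without Control 1 5 rose, with a median of 0.59. Mx1, an antiviral GTPase, had 12.5, 502 and 59.9 CPM in Control and 131, 274 and 321 CPM in Tat libraries (log2 fold change 1.63, adjusted p = 0.259; without Control 2 3.02, adjusted p = 0.0175). Isg15, the ubiquitin-like modifier, had 6.56, 124 and 24.6 CPM (Control) and 45.4, 52.4 and 83.7 CPM (Tat) (adjusted p = 0.313). Oas1a had 2.24, 56.9 and 9.71 CPM (Control) and 37.7, 39.7 and 48.8 CPM (Tat) (adjusted p = 0.1002). Both passed without Control 2 (2.15, adjusted p = 0.0162 and 2.998, adjusted p = 0.0021). Without Control 1, Mx1, Isg15 and Oas1a had log2 fold changes of 0.38, 0.07 and 0.80 (adjusted p = 0.824, 0.955 and 0.463). Irf7, whose promoter is printed above and which amplifies the interferon response, passed with all libraries, from 7.3, 143 and 25.9 to 363, 391 and 359.9 CPM (log2 fold change 3.59, SE 0.71, adjusted p = 0.00289). The antiviral membrane proteins Ifitm1 and Ifitm2 rose from 11.9, 11.7 and 11.7 to 56.8, 38.7 and 46 CPM and from 60.03, 81.4 and 51.8 to 297, 239 and 279 CPM (log2 fold changes 1.94 and 2.09), and their 3 Control libraries lay close together. Ifi27l2b rose from 14.4, 146 and 19.1 to 301, 303 and 436 CPM. Of the interferon-stimulated genes, rises numbered 5, 35, 6, 7, 5 and 7 without Control 1, Control 2, Control 3, Tat 1, Tat 2 and Tat 3 in turn. Irf7 lost its call with a fit to Tat and Control alone (adjusted p 0.0641). Ifi27l2b lost its call with a fit to Tat and Control alone (adjusted p 0.0557).

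MHC class II molecules present peptides to helper T cells. Of 14 genes listed, 9 passed the minimum, 2 of them only through libraries with Tat, and 7 rose and 0 fell. With no minimum all 14 entered, 8 rose and 0 fell, and the median was 1.03 (3.6 over the 9), so the median depends on the minimum. RT1-Da, an alpha chain whose promoter is printed above, was at 0.23, 0.441 and 0.227 CPM in Control and 20.2, 23.4 and 24.3 CPM in Tat libraries (log2 fold change 4.86, SE 0.33, adjusted p = 4.14e-07), with the libraries of each group close together. RT1-Ba, also printed, went from 0.23, 1.08 and 0.182 to 9.33, 17.2 and 18.7 CPM and RT1-Db1 from 0.422, 0.76 and 0.318 to 17.3, 22.6 and 21.7 CPM (log2 fold changes 4.02 and 4.41). Cd74, the invariant chain that chaperones class II molecules, rose from 0.844, 5.69 and 2.04 to 193, 205 and 147 CPM (log2 fold change 6.03, SE 0.67, adjusted p = 2.46e-05). Ciita, the co-activator of these genes, rose with them, from 0.0383, 0.0981 and 0 to 9.02, 6.9 and 3.59 CPM (log2 fold change 3.6, SE 0.49, adjusted p = 0.00015). No library of one group reached the other in these genes. MHC class I and the immunoproteasome numbered 30 tested genes, of which 18 rose and 0 fell (median 1.17). Rises numbered 12 without Control 1, Control 3 or Tat 2 and 24 without Control 2. The median was 0.73 without Control 1 and 1.57 without Control 2. The class I genes RT1-A1 and RT1-A2 went from 199, 478 and 202 to 887, 1215 and 1308 CPM and from 275, 589 and 254 to 968, 1297 and 1390.1 CPM. Since RT1 genes are near-identical copies of each other, reads can be assigned to the wrong copy or lost, and their single values are uncertain. B2m, the light chain common to class I molecules, is a single gene and rose by a log2 fold change of 1.86 (SE 0.25, adjusted p = 0.000153). The peptidase Psmb9 of the immunoproteasome had 22, 73.6 and 33.3 CPM (Control) and 55.9, 88.1 and 79.9 CPM (Tat) (adjusted p = 0.104). Its log2 fold change was 1.42 without Control 2 (adjusted p = 0.0129) and 0.56 without Control 1 (adjusted p = 0.408).

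Complement and the acute-phase proteins are the humoral side of innate defence. Of 29 complement genes 11 rose and 2 fell (median 0.62, 0.94 without Control 2 or Tat 3, and 0.44 without Tat 2). Among the 29, 1 passed the minimum only through libraries with Tat, and with no minimum 10 of 32 rose and 2 fell (median 0.55). Factor B of the alternative pathway (Cfb), whose values stand above, had a log2 fold change of 5.79 (SE 0.7, adjusted p = 5.62e-05). C3, the component on which the pathways converge, went from 648, 1526 and 739 to 7117, 5384 and 2839.6 CPM (log2 fold change 2.41, SE 0.6, adjusted p = 0.0129), and C1s, a protease of the classical pathway, from 306, 665 and 495 to 2471, 2212 and 1324 CPM. Serping1, the inhibitor of C1s and C1r, rose from 263, 574 and 196 to 4329, 3999.8 and 3197 CPM (log2 fold change 3.62, SE 0.5, adjusted p = 0.000174). The 2 genes that fell were factor D (Cfd), the protease that cleaves factor B, from 50.2, 47 and 49.5 to 12, 19.3 and 16.8 CPM, and Cd59, which blocks the membrane attack complex, from 168, 135 and 214 to 93.3, 75.4 and 96.3 CPM. The chains of C1q were not called, with C1qa at 475, 898 and 385 CPM (Control) and 429, 888 and 748 CPM (Tat) (adjusted p = 0.769). Of 33 acute-phase and secreted defence proteins found, 19 passed the minimum, and of these 15 rose and 0 fell. Of the 19, 6 passed only through libraries with Tat. The median of 2.78 over the 19 depends on the minimum, and with none it was 0.80 over 29 genes, of which 14 rose and 0 fell. Ptx3, a long pentraxin, went from 11.4, 28.9 and 6.49 to 314, 394 and 231 CPM, Chi3l1 (YKL-40), a chitinase-like protein of astrocytes, from 143, 261 and 126 to 3987, 4383 and 2049.5 CPM, and the lysozyme Lyz2 from 88.1, 193 and 182 to 2359, 2956 and 1076 CPM (log2 fold changes 4.51, 4.29 and 3.74). Retn (resistin) was at 0 in each Control library and at 5.02, 9.2 and 7.42 CPM with Tat, at least 54.3-fold above a floor of 3 reads per library, with an adjusted p of 4.14e-07, the lowest of all genes beside that of RT1-Da. The alarmin S100a8 rose from 0.115, 0.539 and 0.0908 to 8.47, 7.86 and 4.35 CPM and haptoglobin (Hp) from 1.46, 1.62 and 0.976 to 15.7, 16 and 6.9 CPM. Of the complement genes, rises numbered 5, 7 and 6 without Control 1, Tat 1 and Tat 2 in turn. C3 lost its call without Control 1, Tat 1 or Tat 2 (adjusted p 0.0568 to 0.0624). Cfd lost its call without Control 1, Control 3, Tat 1 or Tat 2 (adjusted p 0.0523 to 0.0919).

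**Figure D3:**
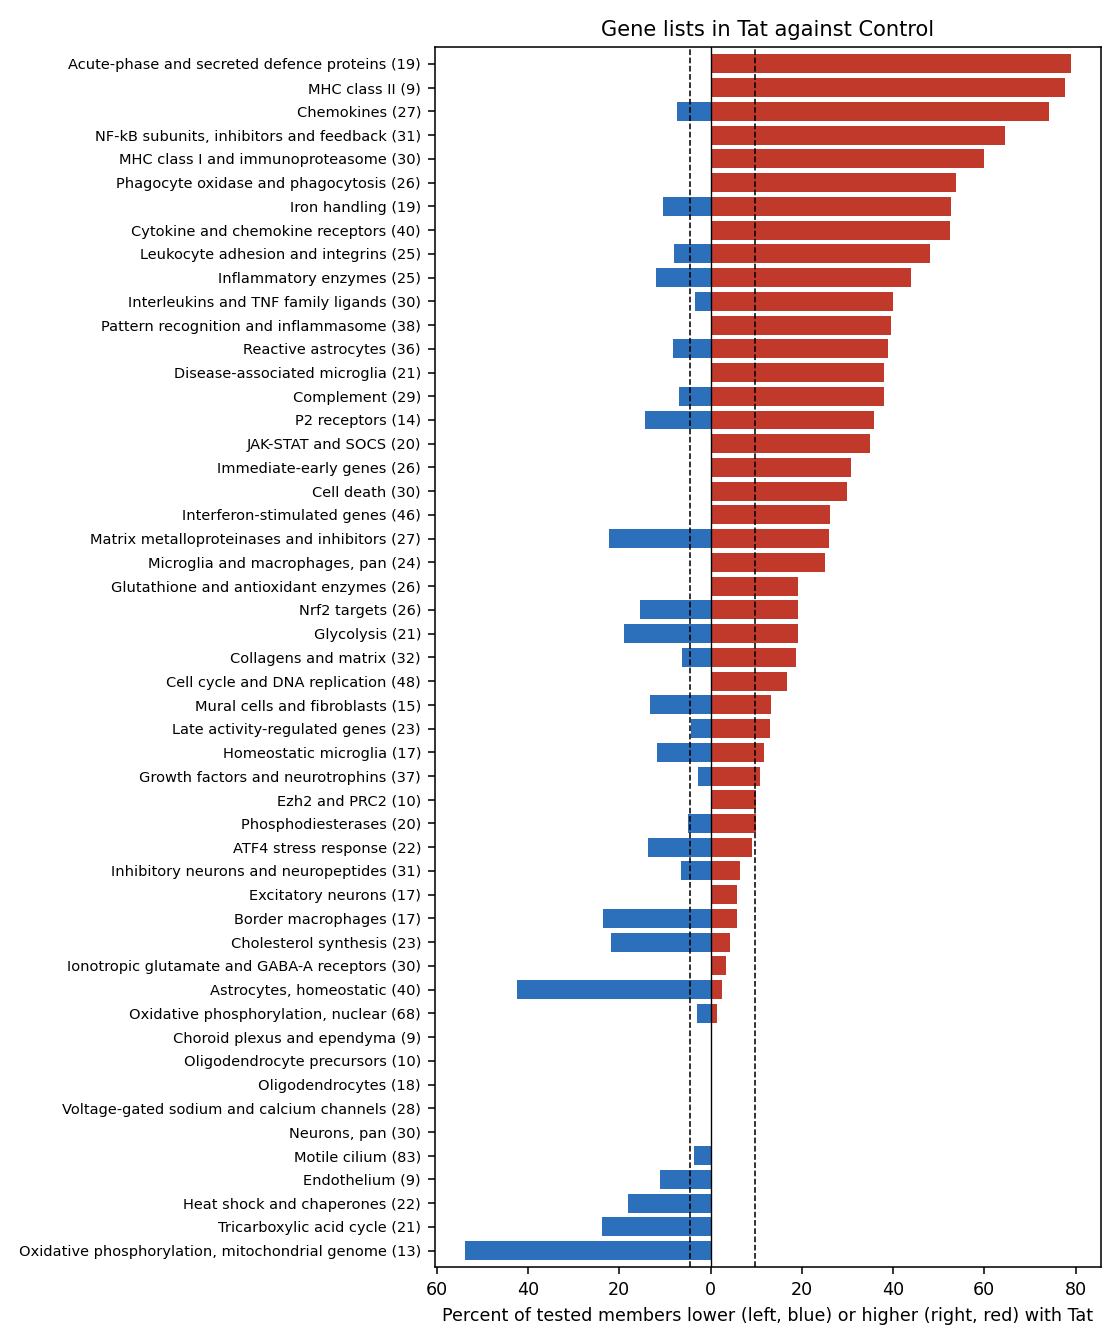
Share of the tested members of each gene list (number tested in brackets) that limma called higher (red, right) or lower (blue, left) with Tat; the dashed lines mark the shares of all genes tested, 9.69% higher and 4.59% lower. Lists of inflammation lie far to the right of the line, while astrocyte genes and genes of the mitochondrial genome are those with the largest shares to the left.

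Enzymes that make inflammatory mediators moved in both directions, with 11 of 25 higher and 3 lower (median 0.82). Of the 25, 4 passed the minimum only through libraries with Tat. With no minimum 10 of 30 were higher and 2 lower (median 0.64). Acod1, which makes itaconate from cis-aconitate, went from 0.115, 0.539 and 0.454 to 47.5, 92.2 and 8.75 CPM (log2 fold change 5.35, SE 0.85, adjusted p = 0.000551). Its Tat libraries spread over 10-fold, with Tat 3 lowest, and each lay above the Control libraries. Ptges, the terminal synthase of prostaglandin E2, rose from 0.652, 0.834 and 0.227 to 31.8, 54.2 and 43.8 CPM (log2 fold change 5.37, SE 0.57, adjusted p = 1.54e-05). Upstream of it, the cyclooxygenase Ptgs2 had 7.9, 3.87 and 4.77 CPM (Control) and 8.06, 4.92 and 9.41 CPM (Tat) and was not called (adjusted p = 0.611). The phospholipase Pla2g2a rose from 0, 0.049 and 0.0908 to 31, 35.1 and 3.59 CPM, Ch25h, which makes 25-hydroxycholesterol, from 1.92, 4.12 and 2.41 to 46.2, 49.9 and 22.4 CPM, and Gch1, which makes the cofactor of nitric oxide synthases, from 1.99, 5.54 and 2.04 to 19.3, 22.9 and 19.2 CPM. Nos2, the inducible synthase, was under the minimum, at 0.0767, 0.049 and 0.0908 CPM (Control) and 0.101, 0.23 and 0.236 CPM (Tat). Ltc4s, the synthase of leukotriene C4, fell from 2.3, 5.74 and 1.95 to 0.101, 0.69 and 0.0473 CPM. Of these enzymes, falls numbered 1 without Control 2. Ltc4s lost its call without Control 2 (adjusted p 0.0514).

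Antioxidant genes rose in part, 5 of 26 with 0 falls (median 0.08). Sod2, the mitochondrial superoxide dismutase that NF-κB induces, led with 175, 398 and 149 CPM in Control and 4383, 4599 and 3369.8 CPM in Tat libraries (log2 fold change 4.22, SE 0.39, adjusted p = 5.8e-06). Prdx5 rose from 167, 198 and 163 to 376, 539 and 389 CPM. Nrf2 targets split into 5 that rose and 4 that fell of 26 (median 0.10). The glutathione transferase Gstm1 fell from 435, 491 and 474 to 249, 246 and 296 CPM (log2 fold change −0.82). Hmox1, a classical target of Nrf2, stood at 135, 201 and 145 CPM (Control) and 194, 291 and 272 CPM (Tat) (adjusted p = 0.139). Iron handling had 10 rises and 2 falls among the 19 genes that passed the minimum (median 0.98, and 0.37 over 21 genes with no minimum). The importers Slc11a2 and Slc39a14 rose from 73.1, 87.4 and 89 to 218, 220.1 and 161 CPM and from 25.9, 28.2 and 22.4 to 134, 124 and 87.6 CPM. The ferroxidase ceruloplasmin (Cp) rose from 606, 1002 and 832 to 4589, 3515 and 2207 CPM, the ferrireductase Steap4 from 0.729, 2.89 and 1.23 to 313, 168 and 70.01 CPM, and hemopexin (Hpx) from 0.518, 0.809 and 0.726 to 11.4, 7.68 and 4.75 CPM. The transferrin receptor Tfrc fell, from 419.7, 258 and 183 to 86.5, 112 and 186 CPM. Of the Nrf2 targets, rises numbered 1, 3, 3 and 1 without Control 1, Control 3, Tat 1 and Tat 2 in turn, and falls numbered 2 and 2 without Control 3 and Tat 1 in turn. Tfrc lost its call without Control 1, Control 2, Tat 1 or Tat 2 (adjusted p 0.0601 to 0.17) and with a fit to Tat and Control alone (adjusted p 0.107).

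Genes of microglia and macrophages were followed as groups. The 24 pan-microglial genes all had a fold change above 0 (median 1.08), and 6 of them passed the test. Their sum was 1564, 2729 and 1841 CPM in Control and 3077, 4959 and 3041 CPM in Tat libraries, and it did not overlap. Aif1 (Iba1), the usual stain of microglia, had 42.1, 122 and 68.4 CPM (Control) and 217, 366 and 139 CPM (Tat) (log2 fold change 1.65, adjusted p = 0.12), higher in each Tat library. Itgam (CD11b) rose from 62.8, 102 and 70.8 to 199, 352 and 191 CPM and the transcription factor Runx1 from 2.42, 4.56 and 2.996 to 13, 16.7 and 9.08 CPM. Of 17 homeostatic microglial genes 2 rose and 2 fell, with a median of −0.33. Without 1 library between 0 and 2 rose and 1 fell, with 0 rises without Control 1, Tat 1 or Tat 2, and the median ran from −0.25 to −0.033, nearest 0 without Tat 1. P2ry12, the purinergic receptor of resting microglia, stood at 10.1, 40.01 and 19.97 CPM (Control) and 11.2, 19 and 7.78 CPM (Tat) (adjusted p = 0.473), and Crybb1 fell from 4.03, 9.32 and 3.86 to 0.862, 0.598 and 0.756 CPM. Of 21 genes of disease-associated microglia, 8 rose and 0 fell (median 0.43). Among the 21, 1 passed the minimum only through libraries with Tat, and with no minimum 6 of 22 rose (median 0.38). The cystatin Cst7 rose from 0.498, 0.637 and 0.454 to 2.74, 5.1 and 11.7 CPM and Itgax (CD11c) from 1.69, 2.45 and 2.59 to 16.2, 42.2 and 19.7 CPM, while Trem2 was at 25.2, 46.5 and 33.1 CPM (Control) and 24.8, 44.7 and 12.7 CPM (Tat) (adjusted p = 0.616). Border macrophage genes fell in 4 of 17 and rose in 1. Only libraries with Tat brought 1 of the 17 past the minimum, and with no minimum 4 of 18 fell and 0 rose. The haemoglobin scavenger receptor Cd163 went from 63, 40.4 and 40.8 to 8.11, 2.21 and 11.5 CPM (log2 fold change −2.86, SE 0.58, adjusted p = 0.00329), Cd209f from 17.3, 17 and 28.7 to 5.42, 0.644 and 0.189 CPM and the hyaluronan receptor Lyve1 from 148, 151 and 168 to 57.6, 29.2 and 49.8 CPM. Outside the list, Fcna (ficolin A, a lectin of macrophages) fell from 121, 88.8 and 78.5 to 12.1, 17.8 and 33.2 CPM. The Tat libraries lay below the Control libraries in each of the genes that fell. Of the pan-microglial genes, rises numbered 2, 3 and 2 without Control 1, Control 3 and Tat 2 in turn. Of the border macrophage genes, falls numbered 2 without Tat 2. Itgam lost its call without Control 1, Control 3, Tat 1 or Tat 2 (adjusted p 0.0561 to 0.158). Cd209f lost its call without Tat 2 (adjusted p 0.0615). Lyve1 lost its call without Control 1, Control 2, Control 3, Tat 1 or Tat 2 (adjusted p 0.0512 to 0.158).

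**Figure D4:**
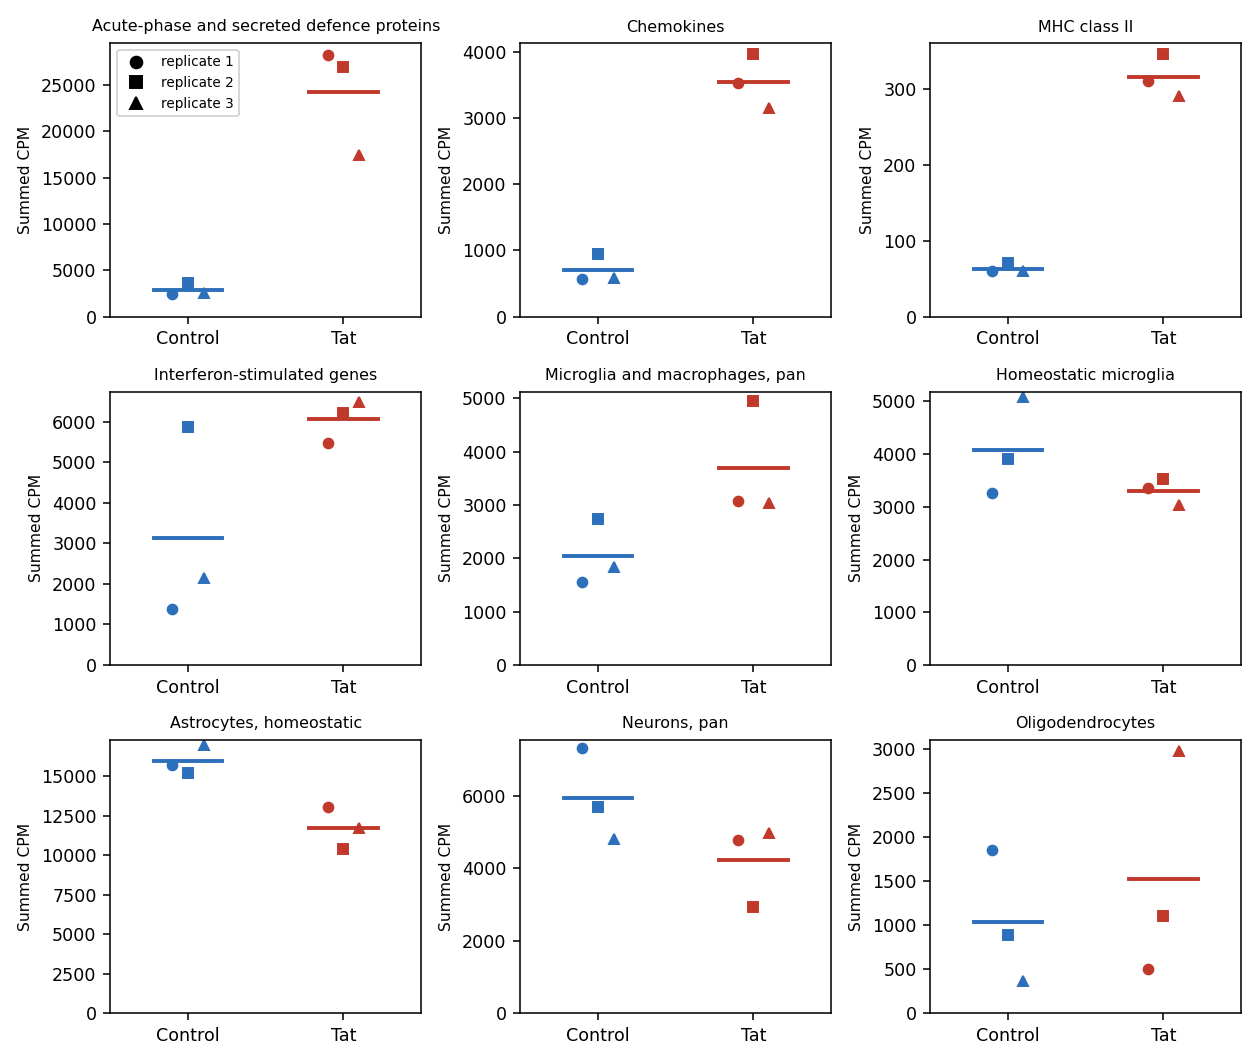
Summed CPM of 9 gene lists in each library (points, shaped by replicate number) with the group mean as a bar; each axis starts at 0. Acute-phase proteins, chemokines and MHC class II separate the groups widely, Control 2 reaches the Tat libraries in interferon-stimulated genes, and oligodendrocyte genes overlap between groups.

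Phagocytosis genes rose in 14 of 26 and fell in 0 (median 1.24). The NADPH oxidase chain Ncf4 went from 3.34, 7.75 and 5.49 to 32.3, 50.1 and 24 CPM and the GTPase Rac2 of the same complex from 28.9, 56.9 and 46.1 to 283, 363 and 159.7 CPM (log2 fold changes 2.58 and 2.57). The tyrosine kinase Fgr, which signals from Fc receptors and integrins, went from 4.64, 8.73 and 5.45 to 79.2, 70.2 and 43.2 CPM. Vasp, which builds actin filaments at phagocytic cups, rose from 31.7, 52.9 and 49.7 to 197, 319 and 111 CPM. Tat 3 was the lowest Tat library in each of these 4 genes. The sum of pan-microglial genes, given above, was also higher with Tat and lowest in Tat 3, and its part in the rises of genes of phagocytes, here and in the lists of receptors and pattern recognition, was not tested. P2 receptors, which sense extracellular nucleotides, had 5 rises and 2 falls among 14. P2ry2 went from 1.61, 2.01 and 1.04 to 12.3, 14.9 and 10.8 CPM (log2 fold change 2.7, SE 0.33, adjusted p = 6.77e-05) and P2ry6, which triggers phagocytosis in microglia, from 7.67, 19.6 and 17.2 to 90.3, 120.3 and 62.1 CPM (log2 fold change 2.63, SE 0.6, adjusted p = 0.00745). Genes of leukocyte adhesion rose in 12 of 25 and fell in 2 (median 0.69). Among the 25, 2 passed the minimum only through libraries with Tat, and with no minimum 10 of 26 rose and 2 fell (median 0.67). Icam1 and Vcam1, the ligands of leukocyte integrins, went from 25.8, 69.9 and 45.3 to 202, 239 and 154 and from 122, 334 and 91.6 to 641, 674 and 592 CPM, and Itgal, an integrin chain that binds Icam1, from 23.5, 72.8 and 46.2 to 408, 608 and 259 CPM. Cd44, the hyaluronan receptor, rose from 106, 125 and 89.8 to 456, 592 and 551 CPM (log2 fold change 2.32, SE 0.23, adjusted p = 8.05e-06). Of the phagocytosis genes, rises numbered 8, 9 and 8 without Control 1, Tat 1 and Tat 2 in turn. Falls of P2 receptors numbered 0 without Tat 1 or Tat 2 and 1 without any other single library. Falls of adhesion genes numbered 0, 0 and 1 without Control 3, Tat 1 and Tat 2 in turn.

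Cell cycle genes were called in numbers that hung on single libraries. Of 48 tested, 8 rose, 0 fell, and 46 had a fold change above 0 (median 0.96). Mki67, the marker of cycling cells, had 8.28, 21.5 and 21.7 CPM (Control) and 65.8, 81.7 and 28.1 CPM (Tat) (log2 fold change 1.73, adjusted p = 0.0638), higher in each Tat library but with Tat 3 close to the Control libraries (without Tat 3 2.18, adjusted p = 0.0322). The spindle protein Tpx2 rose from 7.75, 17.5 and 17.4 to 36.1, 46.9 and 24 CPM. Of the cell cycle genes, rises numbered 0, 2, 0 and 18 without Control 1, Tat 1, Tat 2 and Tat 3 in turn. Tpx2 lost its call without Control 1, Tat 1 or Tat 2 (adjusted p 0.0853 to 0.168) and with a fit to Tat and Control alone (adjusted p 0.0742).

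Many astrocyte genes fell. Of 40 genes of homeostatic astrocytes 17 fell (42.5%, against 4.59% of all genes) and 1 rose, with a median of −0.72. Ntsr2, the neurotensin receptor of astrocytes, went from 143, 129 and 152 to 15.9, 15.7 and 27.4 CPM (log2 fold change −2.86, SE 0.35, adjusted p = 6.5e-05). Gja1 (connexin 43), the gap junction protein that couples astrocytes, went from 557, 516 and 678 to 331, 244 and 225 CPM (log2 fold change −1.14, SE 0.16, adjusted p = 0.000266). The calcium-binding protein S100b fell from 1288, 1114 and 2379 to 568, 544 and 329 CPM and the membrane protein Mlc1 from 1516, 1474 and 2019.8 to 866, 639.95 and 625 CPM (log2 fold changes −1.69 and −1.23). Tril, a partner of Toll-like receptors, fell from 234, 203 and 315 to 46.5, 58.7 and 77.3 CPM, and the bicarbonate transporter Slc4a4 from 81.7, 85.7 and 85.3 to 37.1, 31.9 and 44.2 CPM. The sum of the 40 genes was 15704, 15226 and 16962 CPM in Control and 13031, 10418 and 11705 CPM in Tat libraries. The groups did not overlap in Ntsr2, Gja1, S100b, Mlc1, Tril or Slc4a4, and in these Control 2, which stood apart in inflammatory genes, lay with the other Control libraries. Over the 40 genes, the Tat libraries lay wholly below the Control libraries in 21 and wholly above them in 5, against 13.7 and 19.5% of all genes. The glutamate transporters were not called. Slc1a2 (GLT-1) had 60.4, 60.4 and 48.1 CPM (Control) and 66.2, 51.9 and 55.5 CPM (Tat) (adjusted p = 0.916) and Slc1a3 (GLAST) 1899.7, 1970.4 and 2041 CPM (Control) and 1977, 1581 and 1833 CPM (Tat) (adjusted p = 0.447). The list's single rise was that of syndecan Sdc4, from 125, 183 and 125 to 424, 476 and 290.5 CPM. Reactive astrocyte genes rose in 14 of 36 and fell in 3 (median 0.47). Beside Lcn2, Osmr, Serping1 and Steap4, which are given above, Timp1, an inhibitor of metalloproteinases, went from 32.7, 59.5 and 34.6 to 232, 287 and 326 CPM (log2 fold change 2.76, SE 0.25, adjusted p = 4.97e-06). Gfap, the intermediate filament by which reactive astrocytes are usually recognised, was not called, with 4446, 4044 and 4756 CPM (Control) and 3680.3, 2430 and 2231 CPM (Tat) (log2 fold change −0.7, adjusted p = 0.0599). It passed as lower without Tat 1 (−0.92, adjusted p = 0.0285) and in 5 of the fits that keep all libraries, among them quantile normalization (−1.09, adjusted p = 0.00494).

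Beyond the astrocyte list, other falls were of genes known from glia or neural stem cells. Of those that follow, Nkain4, Id4, Ntrk2 and Psat1 were among the 10 falls of lowest adjusted p. Nkain4, which binds the sodium pump, went from 114, 117 and 183 to 26.4, 28.6 and 23.5 CPM (log2 fold change −2.34, SE 0.18, adjusted p = 1.12e-06). The transcriptional inhibitor Id4 fell from 103, 95.9 and 119 to 41.8, 42.1 and 37.4 CPM, and Ntrk2, the BDNF receptor, from 1534, 1635 and 1717 to 714, 759.8 and 836 CPM (log2 fold changes −1.38 and −1.08). Psat1 and Phgdh, enzymes of serine synthesis, fell from 271, 295 and 469.8 to 126, 115 and 119 CPM and from 225, 204 and 277 to 148, 144 and 149.96 CPM. Cystatin C (Cst3), a secreted protease inhibitor, fell from 3462, 3902 and 5159.8 to 2163, 1499 and 1628 CPM, and angiotensinogen (Agt) from 13.4, 12.2 and 9.58 to 1.62, 1.82 and 2.69 CPM. The Tat libraries lay below the Control libraries in each of these 7 genes.

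Genes of motile cilia were examined because Gmnc, the regulator that starts the programme of multiciliated cells, had the fall of second lowest adjusted p. It went from 19.9, 14.7 and 27.9 to 1.12, 1.61 and 1.47 CPM (log2 fold change −3.45, SE 0.29, adjusted p = 2.19e-06). Of 83 genes of the motile cilium 3 fell and 0 rose (3.61%, against 4.59% of all genes lower), with a median of −0.39, which was −0.083 without Control 3 and −0.70 without Control 1. Beside Gmnc these were Rfx3, a factor of ciliary genes, from 21.8, 25.7 and 24.8 to 18.7, 13.3 and 14.7 CPM, and the adenylate kinase Ak7, from 48.7, 73.1 and 89 to 33.6, 31 and 30.2 CPM. Mcidas, a relative of Gmnc that acts after it, stood at 0.153, 0.834 and 4.54 CPM (Control) and 0.203, 1.15 and 0.0473 CPM (Tat) (adjusted p = 0.342), and Ccno, a cyclin needed for the many basal bodies, at 5.06, 9.12 and 34.6 CPM (Control) and 4.66, 8.92 and 1.13 CPM (Tat) (adjusted p = 0.306). Control 3 was the highest library in both. Of the motile cilium genes, falls numbered 1 without Tat 2. Rfx3 lost its call without Tat 2 (adjusted p 0.0552) and with a fit to Tat and Control alone (adjusted p 0.0557). Ak7 lost its call without Control 2, Control 3, Tat 1, Tat 2 or Tat 3 (adjusted p 0.0567 to 0.0986).

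Of 30 pan-neuronal genes limma called 0, 4 were lower at an unadjusted p below 0.05, 0 had a fold change above 0, and in 7 the Tat libraries lay below the Control libraries (median −0.50, and −0.24 without Tat 2). Their sum was 7323, 5690.4 and 4818 CPM in Control and 4787, 2943 and 4985 CPM in Tat libraries, and the ranges overlapped. Map2, the dendritic microtubule protein, had 639, 500.1 and 592 CPM (Control) and 471, 302 and 396 CPM (Tat) (log2 fold change −0.58, adjusted p = 0.139), and Snap25, a part of the synaptic release machinery, 542, 378 and 319 CPM (Control) and 298, 141 and 339 CPM (Tat) (−0.73, adjusted p = 0.254). The vesicular glutamate transporter Slc17a7 had 625, 397 and 294 CPM (Control) and 286, 111 and 342 CPM (Tat) (−0.91, adjusted p = 0.226). Tat 2 was the lowest of the 6 libraries in these genes, and Tat 2 was also the Tat library with the highest sum of microglial genes. Among 17 genes of excitatory neurons Crym, which binds thyroid hormone, rose from 109, 136 and 58.9 to 251, 235 and 206 CPM, and 0 fell (median −0.45, and −0.28 without Tat 2). Among 31 of inhibitory neurons and neuropeptides 2 rose and 2 fell (median −0.54, −0.34 without Tat 2 and −0.30 without Control 1). Parvalbumin (Pvalb) rose from 1.27, 1.27 and 0.545 to 5.02, 7.31 and 12.7 CPM and the orexin precursor Hcrt fell from 1.38, 5.44 and 3.54 to 0, 0.092 and 0 CPM, both at low levels. Somatostatin (Sst) had 462, 343 and 255 CPM (Control) and 289, 153 and 311 CPM (Tat) (adjusted p = 0.475). Of 30 ionotropic glutamate and GABA-A receptor subunits 1 rose (median −0.53, and −0.25 without Tat 2), and of 28 voltage-gated sodium and calcium channel subunits limma called 0, while 6 had an unadjusted p below 0.05 (median −0.39, and −0.23 without Tat 2). Immediate-early genes, which neurons and glia switch on within minutes of a stimulus, rose in 8 of 26 and fell in 0 (median 0.18). Junb went from 91.7, 112 and 55.1 to 169.8, 177 and 162 CPM and Ier3 from 23.4, 41.6 and 27.5 to 69.6, 108 and 84.7 CPM, whereas Fos had 34, 29.5 and 22.2 CPM (Control) and 42.5, 38.3 and 32.1 CPM (Tat) (adjusted p = 0.253), Arc 12.2, 9.9 and 13 CPM (Control) and 12.9, 4.6 and 6.05 CPM (Tat) (adjusted p = 0.46) and Npas4 10.9, 6.96 and 4.77 CPM (Control) and 8.72, 3.31 and 4.49 CPM (Tat) (adjusted p = 0.697). Of 23 late activity-regulated genes 3 rose and 1 fell. Gadd45b, a stress gene that NF-κB also induces, rose from 15.5, 26.4 and 14.9 to 56.8, 101 and 83.9 CPM, and Bdnf stood at 109.6, 47 and 23.1 CPM (Control) and 30.7, 22.8 and 33.7 CPM (Tat) (adjusted p = 0.563). Of the immediate-early genes, rises numbered 5 and 5 without Control 3 and Tat 2 in turn. Of the late activity-regulated genes, rises numbered 1 and 1 without Control 1 and Tat 2 in turn. Junb lost its call with a fit to Tat and Control alone (adjusted p 0.0503).

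Transcripts of the mitochondrial genome fell in 7 of 13 and rose in 0 (53.8%, against 4.59%), and in 12 of the 13 the Tat libraries lay below the Control libraries (median −0.68). Mt-nd5 and Mt-nd4, subunits of complex I, went from 3867, 3088 and 2842 to 1623, 1541 and 1838 CPM (log2 fold change −0.96, SE 0.19, adjusted p = 0.00252) and from 551, 405 and 395 to 242, 193 and 249 CPM (log2 fold change −0.98, SE 0.18, adjusted p = 0.00186). Mt-cyb, of complex III, went from 8055, 5538 and 5708 to 3849, 3189 and 3970.1 CPM (log2 fold change −0.8). Control 1 was the highest library in each of these genes. Of 68 nuclear genes of the same complexes 1 was called higher and 2 lower (median −0.06). Of 21 genes of the tricarboxylic acid cycle 5 fell and 0 rose (median −0.24). Suclg2, a subunit of succinyl-CoA ligase, went from 174, 167 and 205 to 127, 128 and 105 CPM (log2 fold change −0.6). Glycolysis genes divided into 4 higher and 4 lower of 21. The hexokinase Hk3 of myeloid cells rose from 2.26, 6.13 and 4.45 to 24, 43 and 25 CPM and the regulator Pfkfb3 from 243, 334 and 255 to 527, 635 and 553 CPM, while aldolase C (Aldoc), the astrocytic form, fell from 1121, 1043 and 910.02 to 555, 385 and 547 CPM. The lactate carrier Slc16a1 rose from 177, 249.7 and 186 to 766, 779 and 645 CPM. Cholesterol synthesis fell in 5 of 23 genes and rose in 1 (median −0.22), with the demethylase Cyp51 at 220.1, 262 and 180.2 CPM (Control) and 136, 123 and 126 CPM (Tat). Of 22 genes of the ATF4 stress response 2 rose and 3 fell, among them Ddit3 (CHOP), from 26.2, 37.4 and 21 to 77.2, 71.8 and 79.97 CPM, and of 22 chaperones 4 fell and 0 rose, with Cryab going from 75.7, 72.9 and 103 to 41.5, 40.03 and 46.2 CPM. Of the mitochondrial transcripts, falls numbered 4 and 4 without Control 1 and Tat 2 in turn. Of the glycolysis genes, falls numbered 1, 2, 1 and 1 without Control 1, Control 2, Control 3 and Tat 2 in turn. Of the cholesterol synthesis genes, falls numbered 2, 2, 2 and 2 without Control 1, Control 2, Tat 1 and Tat 2 in turn. Of the chaperones, falls numbered 2 without Control 3. Of the tricarboxylic acid cycle genes, falls numbered 2, 3 and 2 without Control 1, Tat 1 and Tat 2 in turn. Mt-cyb lost its call without Control 1 or Tat 2 (adjusted p 0.108 to 0.115) and with no minimum of CPM or a fit to Tat and Control alone (adjusted p 0.0942 to 0.141).

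The matrix was changed in both directions. Of 27 metalloproteinases, plasminogen activators and inhibitors 7 rose and 6 fell. Among the 27, 2 passed the minimum only through libraries with Tat, and with no minimum 7 of 30 rose and 5 fell. The protease inhibitor Serpine2 fell from 329, 353 and 433 to 197, 193 and 179 CPM. Timp3 fell from 169.9, 169 and 271 to 91.5, 108 and 94.5 CPM and Mmp9 rose from 3.22, 5.1 and 0.681 to 42.3, 12.1 and 7.33 CPM. Of 32 collagens and other matrix genes 6 rose and 2 fell. The fibrillar collagen Col3a1 had 9.03, 10.7 and 208 CPM (Control) and 160.2, 96.1 and 29 CPM (Tat), with Control 3 highest (adjusted p = 0.503). Brevican (Bcan), a proteoglycan of perineuronal nets, fell from 406, 336 and 309 to 70.3, 99.1 and 134 CPM (log2 fold change −1.83). Genes of cell death rose in 9 of 30 and fell in 0 (median 0.39). Mlkl, the effector of necroptosis, went from 2.93, 5.22 and 4.86 to 14.8, 14.1 and 10.4 CPM and the death receptor Fas from 45.9, 66.5 and 46.5 to 105, 97.7 and 94.2 CPM (log2 fold changes 1.51 and 0.91). Growth factors had 4 rises and 1 fall among 37. Only libraries with Tat brought 2 of the 37 past the minimum, and with no minimum 3 of 42 rose and 0 fell. Fgf10 went from 1.38, 1.52 and 0.499 to 5.02, 8.69 and 6.43 CPM and Nrg2 from 4.41, 5.05 and 3.9 to 13.4, 11.4 and 10.9 CPM, while Bdnf was not called, as given above. Of 20 phosphodiesterases, which degrade cyclic nucleotides, 2 rose and 1 fell. Pde4b rose from 38.8, 39.4 and 21.7 to 97.7, 113 and 104 CPM (log2 fold change 1.69, SE 0.26, adjusted p = 0.000445). Of 10 genes of the repressive complex PRC2 Eed rose, from 22.7, 20.8 and 21.9 to 32.8, 33.1 and 35.5 CPM. Of 18 oligodendrocyte genes limma called 0, while 1 had an unadjusted p below 0.05, and they differed widely between libraries of a group. Their sum was 1855, 895 and 369 CPM in Control and 503, 1110.1 and 2979 CPM in Tat libraries, and the ranges overlapped. Of 10 precursor genes limma called 0, and 0 had an unadjusted p below 0.05. Of 9 genes of choroid plexus and ependyma limma called 0, while 3 had an unadjusted p below 0.05. Of 9 endothelial genes 1 fell, and of 15 mural and fibroblast genes 2 rose and 2 fell. Endothelial falls numbered 0 without Control 2, Control 3, Tat 1, Tat 2 or Tat 3. Falls of mural and fibroblast genes numbered 0 or 1 without any single library. Among the 15, 3 passed the minimum only through libraries with Tat, and with no minimum 1 of 17 rose and 2 fell. Of 6 tested neutrophil markers, 3 of which passed the minimum only through libraries with Tat, 4 rose, but the defining granule genes Mpo and Elane had no value above 0.152 CPM in the 6 libraries. Of the metalloproteinases and their inhibitors, rises numbered 4, 4, 4 and 3 without Control 1, Control 3, Tat 1 and Tat 2 in turn. Of the matrix genes, rises numbered 0, 3 and 0 without Control 1, Tat 1 and Tat 2 in turn. Of the cell death genes, rises numbered 4, 4 and 4 without Control 1, Tat 1 and Tat 2 in turn. Of the growth factors, rises numbered 2 and 2 without Tat 1 and Tat 2 in turn. Of the neutrophil markers, rises numbered 2 and 2 without Control 3 and Tat 1 in turn. Mmp9 lost its call without Control 3 or Tat 1 (adjusted p 0.094 to 0.107) and with a fit to Tat and Control alone (adjusted p 0.099).

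Tat was also added to cultures that received another agent, and those 5 comparisons share no library with the one described here. The estimates of spread do share libraries. The fit to 21 libraries held cocaine and 4OI groups, and the fit to all 48 held Tat and Control, so the calls compared are not fully independent. The 5 comparisons ask whether the same genes were called again. In a fit to all 48 libraries (15890 genes), the 1512 genes called higher with Tat alone were again called higher in 723 cases beside cocaine (47.8%, against 6.75% of all genes), 1096 beside Tazemetostat, an inhibitor of the methyltransferase of PRC2 (72.5 against 10.4%), 991 beside Senicapoc, a potassium channel blocker (65.5 against 10.8%), 1060 beside Amlexanox, an inhibitor of the kinases Tbk1 and IKKε (70.1 against 22.6%), and 344 beside 4OI (22.8 against 3.08%). Of the 717 genes lower with Tat alone, 395, 497, 281, 243 and 153 were called lower in the same order (55.1, 69.3, 39.2, 33.9 and 21.3%, against 5.11, 5.63, 5.15, 17 and 2.1% of all genes). Calls in the opposite direction numbered 0 beside cocaine, Tazemetostat and Senicapoc, 29 beside Amlexanox and 1 beside 4OI. Chemokines were called higher in 17, 21, 17, 16 and 14 of their genes in that order, and MHC class II genes in 7, 6, 7, 7 and 2 of theirs. The falls of astrocyte genes were called in 16, 21, 12, 8 and 8. Those of the mitochondrial genome were called in 8, 8, 7 and 11 of 13 beside the first 4 agents and in 0 beside 4OI. Of pan-microglial genes 3, 9, 16, 14 and 0 were called higher, and 13 in Tat against Control in the same fit. Pan-neuronal genes had a median of 0.45 beside cocaine and of −0.79 beside Amlexanox, where 22 fell. Of the 83 genes of the motile cilium 71 were called higher beside Amlexanox and 0 with Tat alone.

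**Figure D5:**
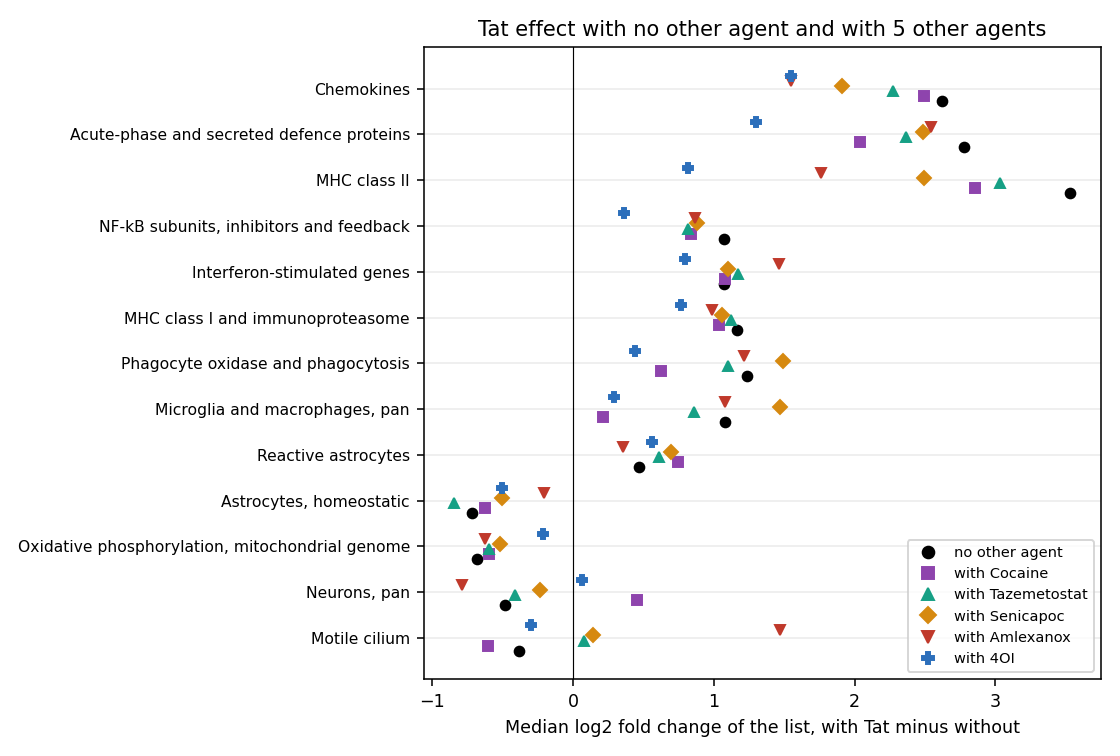
Median log2 fold change with Tat of 13 gene lists (x axis) in cultures with no other agent (black) and with 5 other agents (colours), from 1 fit to all 48 libraries. Medians of the inflammatory lists lie to the right of 0 with each agent, and mostly nearest to 0 with 4OI; those of neuronal and ciliary genes lie on both sides.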

How the data were processed

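RNA of rat primary cortical cultures was read by poly(A) RNA-seq in 48 libraries of 16 groups, and the 3 Tat and 3 Control libraries were compared. According to the submitters' processing notes the reads were trimmed with Trim Galore 0.4.5, aligned with STAR 2.7.2 and counted with featureCounts of Subread 1.5.3. These notes and the methods name different genome builds, so no gene coordinates are given, except those of the RefSeq promoters (build GRCr8). The library kit keeps strand, and whether counting used it is not given in the sources used here, so overlapping genes are uncertain. The deposited values are a normalized signal, CPM that the authors made in edgeR with TMM scaling factors. Count tests were not run on them, because library sums ran from 930399 to 1030650 in the 6 libraries and 86.1 to 87.03% of nonzero values stood for a whole number of reads (tolerance 0.02). Columns with the authors' own comparisons (fold changes, likelihood ratios, p-values and false discovery rates) and their group means were not used.

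Genes that reached 0.5 CPM in 3 or more of 21 libraries (Control, Cocaine, Tat, Tat-Cocaine, 4OI, Tat-4OI and Tat-Cocaine-4OI) were tested with limma 3.58.1 (trended variance, no block) in R 4.3.3 on log2(CPM + 0.5), at an adjusted p of 0.05. All 7 groups thus share 1 estimate of the spread. A floor of 3 reads was used where each Control library was at 0, and it covers counting error only. The test was tried on simulated data of this comparison (15509 genes), where it called 72.6% of genes changed by a log2 of 1 and 100% of those changed by 4, with 6 false calls. The changed genes had a mean log2(CPM + 0.5) above 1 and the libraries were drawn independently. Low genes and shifts of a whole library were thus not tried. The members and the 53 gene lists (1412 genes found, 1287 tested) were chosen with earlier results of these data known. Genes named are any on a list, and among called genes the 20 largest rises and 20 largest falls (at least 1 CPM in the higher group, groups that do not overlap), the 10 of lowest adjusted p in each direction, the 10 largest gains and losses in CPM, the 10 that spread most among Tat libraries and at most 5 that differ beside another agent.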

Additional observations from a re-analysis of the deposited data

Results flagged for a closer look

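The effect of Tat was compared between cultures with and without another agent by a contrast of the 2 effects in limma, with all 48 libraries. It differed for 292 genes beside Amlexanox, of which 144 were among the 2229 genes called with Tat alone (14.3% of those tested), and for 79 genes beside 4OI, of which 74 were among them. The contrast holds the same Tat and Control libraries that gave these calls, so the overlap was in part fixed in advance. Beside cocaine, Tazemetostat and Senicapoc 0 genes passed the same test in limma, with 1757, 271 and 762 at an unadjusted p under 0.05.

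Retn had the clearest difference. It went from 0, 0 and 0 to 5.02, 9.2 and 7.42 CPM with Tat alone, and beside 4OI it had 0, 0 and 0 CPM without Tat and 0.107, 0.538 and 0.0973 CPM with it (log2 fold changes 3.91 and 0.53, difference −3.38, SE 0.35, adjusted p = 4.38e-07). LOC691143 went from 11.7, 12.2 and 13.5 to 75, 84.7 and 83.2 CPM with Tat alone, and stood at 13.9, 14.3 and 14.1 CPM with 4OI and at 19.6, 21.2 and 18.8 CPM with both (log2 fold changes 2.65 and 0.48, difference −2.17, adjusted p = 9.68e-06). Gpsm2, Gramd4 and Oaf followed, with log2 fold changes of 0.81, 0.67 and 1.09 without and of −0.23, −0.07 and 0.12 with 4OI (adjusted p = 0.00329 for each difference).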

How the results depend on the processing

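Of the 2229 calls, 1175 were kept in a fit to Tat and Control alone, which called 1252 genes (867 higher, 385 lower), and 2175 in a fit to all 48 libraries, which called 3382 (2318 higher). Array weights called 3287 genes (2054 higher, 1233 lower). A cut on the fitted log2 fold change of the called genes, at a size of at least 1, left 833 calls (658 higher or 79%, 175 lower). Without 1 library the calls ranged from 1030 to 2401 (689 to 1671 higher, 341 to 730 lower), lowest without Tat 2, and between 63.3 and 71% of them were higher. Quantile normalization kept 1975 calls, changed the direction of 1 and gave 55.3% higher. The other pseudocounts, minima, median ratio rescaling and the fit with no trend called 1985 to 2246 genes. The cause of these shifts was not tested.

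Whether replicate numbers pair the libraries could not be settled with 3 libraries a group. The deviations of Tat and Control libraries of the same number correlated at −0.101, 0.313 and −0.585, and not every library correlated best with its own number. A fit with the replicate block called 3178 genes (2085 higher, 1093 lower), against 2229 with no block. With the block in Tat and Control alone, a setting chosen after seeing the data, 595 were called (460 higher, 135 lower).

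Of the 199 tested genes named in the text 168 were called. Of these, 109 stayed past the threshold under each alternative run, 54 lost the call under at least 1 alternative that keeps all libraries, 20 without 1 library, and 0 changed direction. The 109 and 54 count the cut at a log2 fold change of 1, under which every smaller change loses its call by definition. They also count the block fit to Tat and Control alone, chosen after seeing the data. Neither setting enters the sentences above on single genes that lost a call. Of the 31 genes not called, 11 passed under at least 1 alternative, namely Aif1, Gfap, Hmox1, Il6, Isg15, Mki67, Mx1, Oas1a, Psmb9, Rela and Slc1a3. Among genes not called, the log2 fold change changed sign for Cxcl10 (−0.26 with array weights, −0.33 to 1.98 without 1 library), C1qa (−0.14 with array weights) and Slc1a2 (−0.0044 with quantile normalization, −0.068 to 0.114 without 1 library). Low genes are limited by depth, since 0.5 CPM stood for 9.86 to 13.04 reads.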

Other observations

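Among genes called with at least 5 CPM in the Tat group, the 10 whose Tat libraries differed most included Cxcl6, Acod1, Pla2g2a and Mmp9, which are given above. Gpr84, a receptor of medium-chain fatty acids on activated myeloid cells, had 0.345, 3.63 and 2.54 CPM in Control and 34.9, 70.6 and 8.41 CPM in Tat libraries (log2 fold change 3.68, SE 0.94, adjusted p = 0.0147). The interleukin receptor Il17rb had 0.997, 1.27 and 2.18 CPM (Control) and 42.6, 26.8 and 4.92 CPM (Tat), and the chemokine Ccl19 0.192, 2.6 and 0 CPM (Control) and 8.72, 39.9 and 67 CPM (Tat). Plet1 had 0.422, 0.392 and 0.59 CPM (Control) and 31.7, 18.5 and 5.11 CPM (Tat). The other 2 were AABR07035722.1, with 0, 0.0735 and 0.0908 CPM (Control) and 7.94, 6.97 and 0.709 CPM (Tat), and RGD1560281, with 0.0383, 0.147 and 0.227 CPM (Control) and 23, 17 and 3.55 CPM (Tat). Tat 3 was the lowest Tat library in Gpr84. Gpr84 lost its call without Control 1, Tat 1 or Tat 2 (adjusted p 0.0522 to 0.0944). Il17rb lost its call without Control 1, Control 2, Control 3, Tat 1 or Tat 2 (adjusted p 0.0506 to 0.12). AABR07035722.1 lost its call without Control 1, Control 2, Control 3, Tat 1 or Tat 2 (adjusted p 0.0508 to 0.121) and with a fit to Tat and Control alone (adjusted p 0.0537).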
